A study of Mus musculus with 4 samples.

Results

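Fibroblast-like cells made up 119 of the 23549 filtered cells in 3 libraries of reporter-positive cells sorted from mouse thymus. A cell entered this class when it carried at least 3 UMIs of Dcn, at least 3 UMIs of Col3a1 and Col1a2 together, and fewer than 30 UMIs of C1qa, C1qb and C1qc together. UMIs are unique molecular identifiers, each marking 1 captured RNA molecule. Dcn encodes decorin, a collagen-binding proteoglycan, Col1a2 and Col3a1 encode chains of type I and type III collagen, and the C1q genes encode the complement subunits that thymic macrophages make in quantity. Only cells with 1000 to 7000 detected genes and at most 10% mitochondrial UMIs were considered. Because these 6 genes chose the cells, their values are given as a description.

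The study sorted thymic cells by a fluorescent reporter and profiled them by droplet single-cell RNA sequencing (10x Genomics 3′ chemistry), with 4 libraries from C57BL/6 mice. MAFIA replicates 1 and 2 came from mice aged 5 weeks whose transgene (Csf1r-EGFP-NGFR/FKBP1A/TNFRSF6) drives EGFP from the Csf1r promoter, which is active in macrophages and other myeloid cells. Cd11cYFP replicates 1 and 2 came from mice aged 9 weeks carrying Itgax-Venus, in which Venus, a yellow fluorescent protein (YFP), is driven by the Itgax (CD11c) promoter, active in dendritic cells and in many macrophages. The thymi had been digested with collagenase P and DNase I and enriched on Percoll, and live single cells positive for the reporter were sorted. The study's methods name 1 female MAFIA mouse and 2 male Cd11cYFP mice, and nothing in the labels says whether the 2 MAFIA libraries came from separate animals. Reporter, sex and age therefore cannot be told apart between the strains. No treatment was given, and all mice carried a reporter, so there was no reporter-free control. The rule took MAFIA replicate 2 and both Cd11cYFP libraries.

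Fibroblasts are the mesenchymal cells of the thymus that form its capsule, septa and perivascular sheaths and lay down the reticular fibre network. In mouse they are known as a source of factors that support thymic epithelium and developing thymocytes, among them Fgf10, Bmp4 and chemokines. Capsular fibroblasts of the mouse thymus carry Dpp4 (CD26), whereas medullary fibroblasts lack it. In other mouse tissues Pi16 and Dpp4 mark an adventitial fibroblast state and Col15a1 and Penk mark parenchymal states.

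The share of fibroblast-like cells differed between the libraries. In Cd11cYFP replicate 1 the class held 66 of 7646 filtered cells, or 0.863% (exact 95% interval 0.668 to 1.10%). Cd11cYFP replicate 2 had 52 of 9684, or 0.537% (0.401 to 0.704%). A lone cell of 6219 met the rule in MAFIA replicate 2, a share of 0.0161% (0.000407 to 0.0896%). Both Cd11cYFP intervals lay above that of MAFIA replicate 2, and no test over libraries was run. The intervals cover counting error only. In MAFIA replicate 1, which the rule did not use, 0 of 5493 filtered cells met it, which allows a share of up to 0.0546% taken as 3 cells of that total, or 0.0671% as the upper exact 95% limit. That library was shallower, with a median of 3979 UMIs per filtered cell, and Dcn was seen in 23 of its cells at no more than 1 UMI each. The highest Dcn count there was thus below the limit of the rule.

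The fibroblast-like cells were somewhat shallower than the other cells of their libraries. They carried a median of 14549.5 UMIs in Cd11cYFP replicate 1 (lowest 6400, highest 41128) and 12393.5 in replicate 2 (7231 to 29098), against 15734 and 17170 over all filtered cells. Their median number of detected genes was 4207 and 3822. Mitochondrial UMIs took a median of 1.97% and 2.63% of their UMIs, slightly above the 1.48% and 1.60% of all filtered cells. Any 2 of the 4 libraries shared 10 to 25 cell barcodes, and 1 barcode of a fibroblast-like cell also occurred in another library. Library totals ran from 26876378 UMIs in MAFIA replicate 1 to 185882793 in Cd11cYFP replicate 2.

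UMI counts of the genes that chose the cells spread over a wide range from cell to cell. Dcn had 4, 267.5 and 535 UMIs per cell (lowest, median and highest) in Cd11cYFP replicate 1, and 16, 204.5 and 526 in replicate 2. Col1a2 ran over 1, 38.5 and 170 UMIs in replicate 1 and 1, 22 and 100 in replicate 2. Col3a1 had 2, 28.5 and 145 UMIs in replicate 1 and 1, 24.5 and 165 in replicate 2. The ranges of the 2 libraries overlapped almost entirely for all 3 genes, and the medians lay well above the limits of the rule. The cell from MAFIA replicate 2 carried 99 Dcn, 41 Col1a2 and 50 Col3a1 UMIs among 13871 in all, inside the range of the Cd11cYFP cells.

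Few cells sat near the limits of the rule. The weakest members had 4 Dcn and 3 collagen UMIs, 54 Dcn and 4 collagen UMIs, and 92 Dcn and 5 collagen UMIs. The first of these held 31056 UMIs with 11 of Ptprc, the gene of the pan-leukocyte antigen CD45, and the next held 27863 UMIs with 12 of Ptprc. Outside the rule, 19 cells had at least 3 Dcn UMIs. Of these, 4 had 30 or more C1q UMIs, 3 of them failing on that limit alone, and the other 15 had too few collagen UMIs, as did 1 of the 4. The 3 included a cell with 291 Dcn, 9 collagen and 356 C1q UMIs and another with 179 Dcn, 39 collagen and 145 C1q UMIs, both from Cd11cYFP replicate 1. A cell with 77 Dcn UMIs, 0 collagen UMIs and 16 UMIs of the epithelial gene Epcam lay outside in replicate 2.

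Genes that the rule did not count were present in nearly the same cells. Lum, which encodes the fibril-binding proteoglycan lumican, had 0, 22.5 and 114 UMIs per cell in Cd11cYFP replicate 1 and 1, 16 and 79 in replicate 2 (lowest, median and highest). Pdgfra, the platelet-derived growth factor receptor that marks fibroblasts in many tissues, had 0, 8 and 37 UMIs in replicate 1 and 0, 6 and 21 in replicate 2. Col1a1, the partner chain of Col1a2 in type I collagen, had 0, 12 and 75 in replicate 1 and 0, 6.5 and 61 in replicate 2. The medians were lower in replicate 2 for all 3, and the ranges overlapped. The cell from MAFIA replicate 2 carried 11 Lum, 5 Pdgfra and 21 Col1a1 UMIs.

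**Figure D1:**
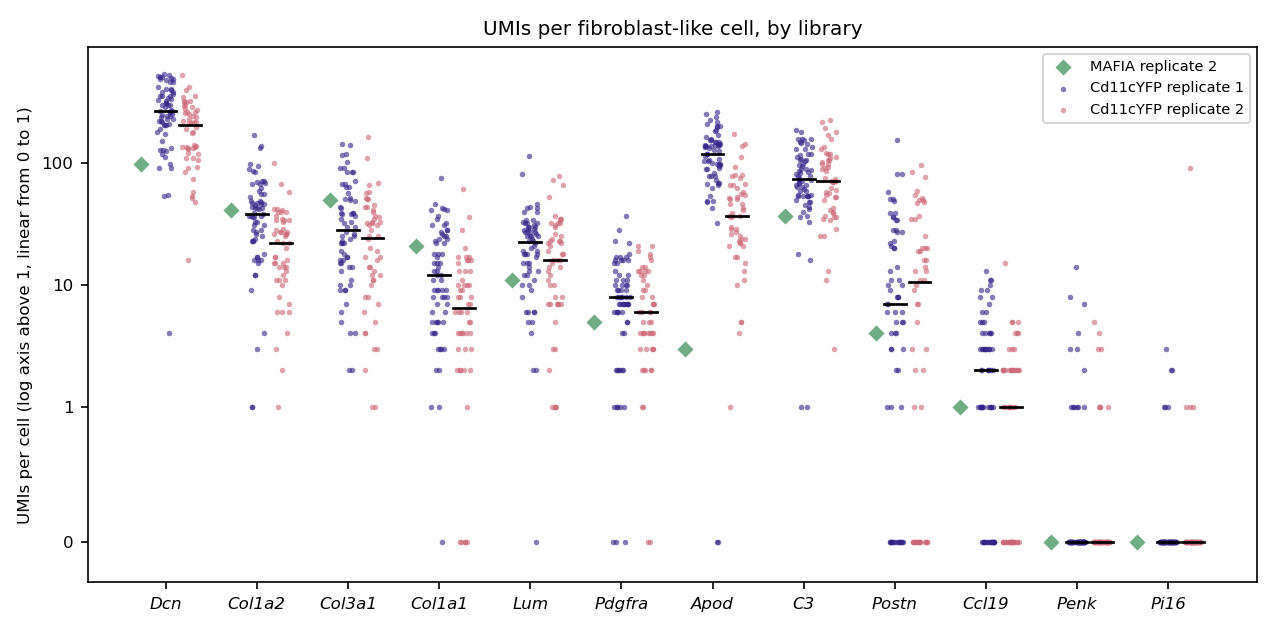
UMIs per fibroblast-like cell (vertical axis, logarithmic above 1) for 12 genes, with 1 point per cell coloured by library and black bars at the Cd11cYFP medians. Dcn medians of 267.5 and 204.5 stand beside Apod medians of 119 and 37, whereas Penk and Pi16 lie at 0 in most cells.

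Shares of cells with a UMI were compared after every cell had been thinned to 3000 UMIs, with B cell-like cells of the same libraries as a background for free RNA (1111 and 1332 cells). Lum was then seen in 93.9% and 86.5% of the fibroblast-like cells of Cd11cYFP replicates 1 and 2, against 0.180% and 0% of the B cell-like cells. Without thinning these shares were 98.5% and 100% and 0.450% and 0.300%. Pdgfra was seen in 78.8% and 63.5% after thinning and 95.5% and 96.2% before it, against 0% and 0.0751% and 0% and 0.300% of B cell-like cells. Dpt, encoding the matrix protein dermatopontin, was seen in 90.9% and 84.6% (100% and 96.2% unthinned) and in 0% and 0% of the B cell-like cells (0.0900% and 0% unthinned). A share of 0 allows up to 0.331% of the 1111 and 0.277% of the 1332 B cell-like cells (exact 95% limits). For these 3 genes the B cell-like cells thus showed almost no background at either depth. Ly6a, which encodes Sca-1 and which B cells also express, was seen in 100% and 90.4% of fibroblast-like and 95.7% and 94.4% of B cell-like cells, so its presence did not separate the classes.

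**Figure D2:**
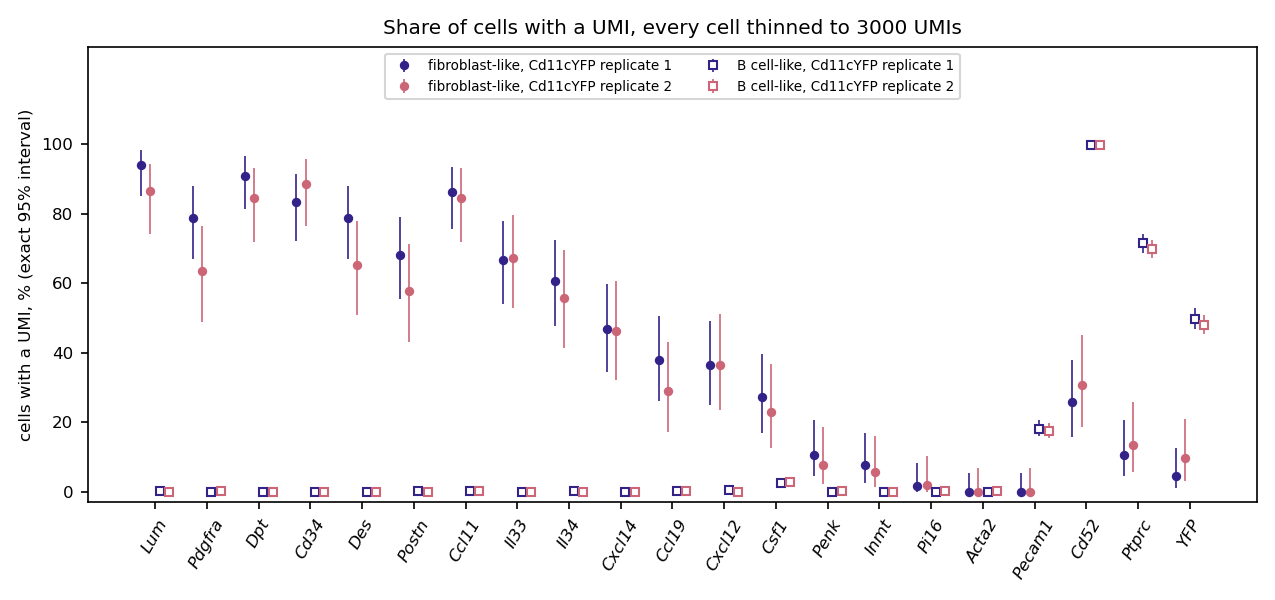
Share of cells with at least 1 UMI of 21 genes after thinning every cell to 3000 UMIs (vertical axis, percent), for fibroblast-like cells (filled circles) and B cell-like cells (open squares) of the 2 Cd11cYFP libraries, with exact 95% intervals. Lum and Dpt lie above 84% in the fibroblast-like cells, Ptprc lies at 10.6% and 13.5%, and the same genes lie near 0 and near 70% in the B cell-like cells.

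Markers of fibroblasts led in these cells, and some listed for mural cells were also present, mainly Des. All 14 fibroblast-like markers had UMIs, and their summed level was 31661 and 26949 CPM (a gene's UMIs per 1000000 UMIs of the summed cells) in Cd11cYFP replicates 1 and 2, against 30.1 and 35.0 in the remaining cells. These markers include Dcn, Col1a2 and Col3a1, which chose the cells, and Dcn alone stood at 17312 and 14863 CPM. The sum is therefore a description and does not support the name of the class. The remaining cells are the 23306 filtered cells that met neither this rule nor the epithelial-like rule. Among 6 mural cell markers Rgs5 had no UMI and Acta2 had UMIs in 4 cells, while Des and Notch3, which fibroblasts can also express, had UMIs in 113 and 45. The mural markers summed to 599 and 553 CPM against 2.13 and 1.53 in remaining cells, and most of the members' sum was Des. Among 5 endothelial markers Pecam1, Cdh5 and Egfl7 had no UMI, and the markers summed to 4.60 and 1.41 CPM against 52.2 and 37.8. A longer list of 20 endothelial genes summed to 883 and 659.9 against 77.1 and 65.4. Most of that sum was Ly6c1 (486 and 312), Eng (256 and 229) and Plvap (123 and 107), and 9 of the 20 genes had no member UMI. None of 3 mesothelial markers and neither of 2 adipocyte markers had a UMI. A longer list of adipocyte and precursor genes summed to 816 and 825 against 163 and 153, nearly all of it Lpl. Of 3 Schwann cell markers 1 had a member UMI, and together they stood at 4.60 and 0 CPM, while a longer Schwann and neural list summed to 299.7 and 322 against 76.9 and 82.7. The 4 dendritic cell markers, which include Cd74 and H2-Aa, summed to 3417 and 5448 against 22797 and 26937. All 14 fibroblast-like markers were thus present, those of the rule by choice. Pecam1, Cdh5, Rgs5, Msln and Adipoq were at 0, but 5 of the 6 mural and 2 of the 5 endothelial markers had UMIs.

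Haematopoietic RNA was low in most of these cells and high in a few. Over 12 genes that most blood cells express, such as Ptprc, Cd52 and Coro1a, UMIs took a median of 0.0304% of a cell's UMIs in Cd11cYFP replicate 1 and 0.0408% in replicate 2. The medians of the remaining cells were 0.854% and 0.804%. In 9 fibroblast-like cells, 3 from replicate 1 and 6 from replicate 2, the share reached the 5th percentile of the remaining cells (0.434% and 0.420%). These 9 cells held 13105 to 41128 UMIs with a median of 26915, against a median of 13569 in the other 110. Their Dcn counts ran from 4 to 407 with a median of 58, against a median of 247 in the others. Cd74, the invariant chain of MHC class II, had 147 to 776 UMIs in them, with a median of 490 against 3 in the others. In both libraries they were therefore deeper and richer in Cd74 than the other members. Their Dcn medians were 244 against 268 in replicate 1 and 56 against 218 in replicate 2, so the pooled gap in Dcn came mostly from replicate 2. Whether these 9 cells are doublets of a fibroblast and a haematopoietic cell was not tested.

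**Figure D3:**
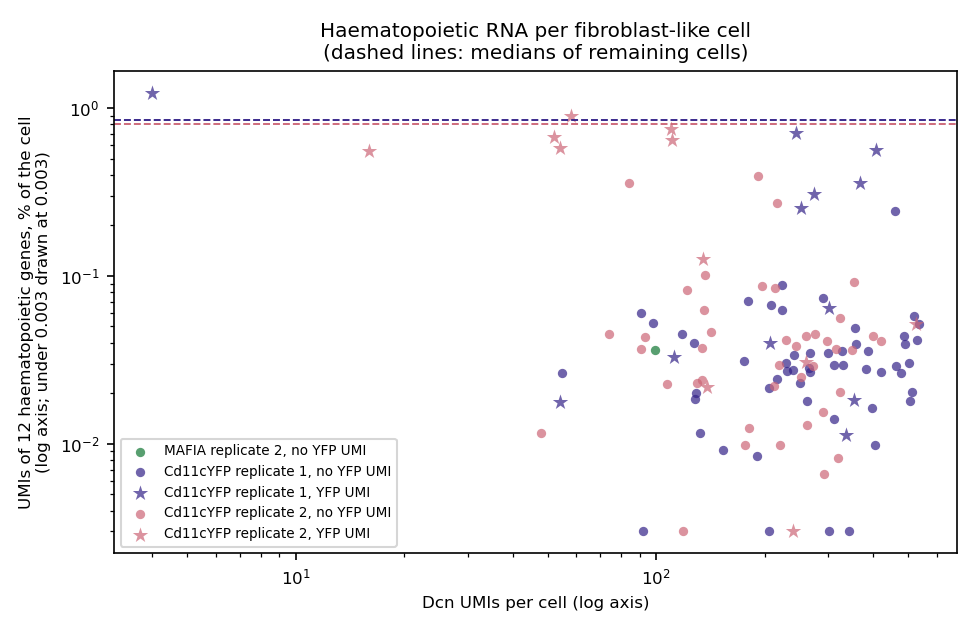
Each point is a fibroblast-like cell, with its Dcn UMIs on the horizontal axis and the percent of its UMIs from 12 haematopoietic genes on the vertical axis (both logarithmic), coloured by library, with stars for cells that carry a YFP UMI and dashed lines at the medians of the remaining cells (0.854% and 0.804%). The 9 cells with the highest percentages all carry a YFP UMI, and most other cells lie below 0.1%.

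Reporter RNA was scarce in the fibroblast-like cells. YFP was seen in 12 of the 66 cells of Cd11cYFP replicate 1 (highest 10 UMIs) and in 11 of the 52 of replicate 2 (highest 36 UMIs). After thinning the shares were 4.55% and 9.62%, against 49.8% and 48.05% of the B cell-like cells, which had been sorted on the same reporter. In each Cd11cYFP library the fibroblast-like cells thus carried YFP RNA less often than another sorted class at the same depth. The exact intervals did not overlap within either library, but they cover counting error among cells only. No test of these shares over libraries was run. All 9 cells with much haematopoietic RNA carried both YFP and Ptprc UMIs, whereas of the other 110 cells YFP was seen in 14 and Ptprc in 27. As levels, YFP stood at 32.2 and 88.6 CPM in fibroblast-like cells and 1035 and 419 in remaining cells of replicates 1 and 2. Without the 9 cells, a step chosen after the values had been seen, the fibroblast-like level was 18.4 and 10.3. Itgax, the gene whose promoter drives YFP, stood at 14.7 and 18.3 in all members and 6.12 and 1.72 without the 9 cells, against 129 and 113 in remaining cells. Csf1r, the receptor for CSF1 whose promoter drives EGFP, was at 11.03 and 5.63 against 133 and 97.8, and its share of cells with a UMI (3.03% and 1.92% thinned) was near that of B cell-like cells (1.98% and 1.35%). The cell from MAFIA replicate 2 had no EGFP UMI and no Ptprc UMI.

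Ptprc itself was seen in 17 and 19 cells of replicates 1 and 2. YFP UMIs occurred in 15 of the 36 members with a Ptprc UMI (41.7%) and in 8 of the 83 without (9.64%). Within replicate 1 these counts were 7 of 17 and 5 of 49, and within replicate 2 they were 8 of 19 and 3 of 33. The members with a Ptprc UMI were deeper, with medians of 16629 and 17332 UMIs against 14108 and 11108 in replicates 1 and 2, and these counts were not thinned. Without the 9 cells rich in haematopoietic RNA, YFP was seen in 6 of 27 members with a Ptprc UMI (22.2%) and in the same 8 of 83 without. Xist, the RNA of the inactive X chromosome, had no UMI in any Cd11cYFP member, and Y-linked Ddx3y was seen in 46 and 37 of them, the donors of that strain having been male. The cell from MAFIA replicate 2 carried 21 Xist UMIs and no Ddx3y UMI, the MAFIA donor having been female.

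Levels were compared between 3 classes of the same libraries by summing raw UMIs per library over the fibroblast-like cells (2 sums, the lone cell of MAFIA replicate 2 being too few for one), the 124 epithelial-like cells and the remaining cells (3 sums each). The epithelial-like cells, chosen by Epcam and the keratin genes Krt5, Krt8 and Krt18, are the other stromal class of the sort. They were mixed, with Pth at 28957 and 40561 CPM and much MHC class II RNA. In Cd11cYFP replicates 1 and 2 their 4 dendritic cell markers summed to 23021 and 25494 CPM, against 22797 and 26937 in the remaining cells. Differences are given as log2 differences (members minus reference) from an edgeR quasi-likelihood model with the library as a block. The value after ± is a standard error derived as the absolute difference over the square root of its F statistic. It restates the test result and does not bound a difference where a class held few UMIs. A gene is called when its Benjamini-Hochberg adjusted p lay under 0.05. With 2 member sums, a gene that was not called is not shown to be equal. Against the remaining cells 2605 of 11485 genes were called higher in the fibroblast-like cells, or 22.7%, and 2310 lower, or 20.1%. Against the epithelial-like cells 1891 of 11481 were called higher, or 16.5%, and 2066 lower, or 18.0%. Since the rule itself drew these contrasts on RNA of the same cells, the calls and differences below are descriptions, and nothing about the classes is read from their number. A gene scarce in the remaining cells passed the filter on low counts only through the fibroblast-like cells and had to differ. The median log2 difference of all genes was −0.10 and −0.08 in the 2 comparisons, and DESeq2 with its own size factors put the former at 0.008. Pairs of levels below are CPM in Cd11cYFP replicates 1 and 2, in that order.

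Genes of fibroblast identity were nearly all higher in the fibroblast-like cells. Of the 21 tested, 20 were called higher against the remaining cells and 21 against the epithelial-like cells, with median log2 differences of 9.33 and 5.56. Gsn, encoding the actin-severing protein gelsolin, stood at 8799.6 and 10444 in members, 182 and 187 in remaining cells and 166 and 215 in epithelial-like cells, with log2 differences of 5.61 ± 0.17 and 5.56 ± 0.17. Lum stood at 1424 and 1484 against 0.459 and 0.0941 in remaining cells. Pdgfra reached 547 and 549, against 0.0963 and 0.0332 in remaining cells (12.90 ± 0.41) and 3.39 and 0.763 in epithelial-like cells (8.64 ± 0.47). For all 3 genes every member sum lay far above every reference sum. Ly6a (Sca-1) was less separated, at 2797 and 2261 against 833 and 542 (1.68 ± 0.30, but 1.54 and not called without Cd11cYFP replicate 1). Vim, the mesenchymal intermediate filament that leukocytes also express, stood at 1741 and 1857 against 1196 and 1415 and was not called (0.39 ± 0.17). Thy1, known both from thymocytes and from fibroblasts, stood at 183 and 162 against 17.1 and 11.8 and had UMIs in 90 of the 119 members. Podoplanin, encoded by Pdpn and a marker of reticular cells in lymph nodes, had UMIs in 102 of the members and a level of 228 and 176.

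**Figure D4:**
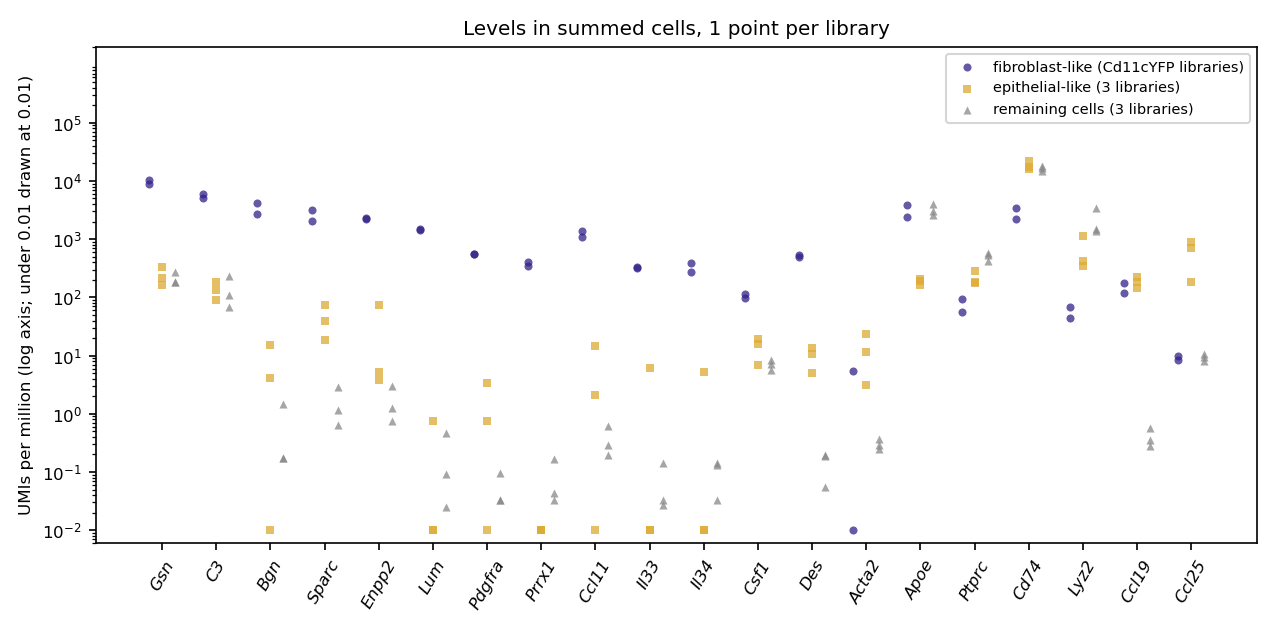
Levels of 20 genes in CPM (logarithmic vertical axis) in the summed fibroblast-like cells of the 2 Cd11cYFP libraries (circles) and in the epithelial-like (squares) and remaining cells (triangles) of 3 libraries, 1 point per library. Gsn to Des stand higher in the fibroblast-like cells, Apoe overlaps the remaining cells, and Ptprc, Cd74 and Lyz2 stand lower.

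The collagen genes that were tested were all higher than in the remaining cells. All 12 tested genes of the fibrillar and other collagens outside the rule were called higher against the remaining cells, and 11 of 12 against the epithelial-like cells. Col6a1 and Col6a2, chains of the microfibrillar type VI collagen, stood at 1748 and 1413 and at 1585 and 1174 in members, with levels under 1 in remaining cells. Col5a2, a chain of the type V collagen that nucleates fibrils, stood at 471 and 415 with a log2 difference of 13.43 ± 0.59 against remaining cells. Col14a1, a fibril-associated collagen, had UMIs in 18 members and a smaller difference of 4.45 ± 0.37. Col11a1, a cartilage collagen, had no UMI. Among the small leucine-rich proteoglycans, all 7 tested were called higher in both comparisons. Bgn (biglycan) stood at 4140.1 and 2751 and Prelp at 607 and 538, while Fmod (fibromodulin), prominent in tendon, had no UMI.

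Basement membrane genes were also present throughout. All 15 tested were called higher against the remaining cells, with a median log2 difference of 10.13. Sparc, a collagen-binding matricellular protein, stood at 3166 and 2042 against 1.15 and 0.631 in remaining cells (11.32 ± 0.43). Col4a1, a chain of type IV collagen, stood at 930.4 and 739 (10.26 ± 0.73), and Hspg2, the gene of perlecan, at 599 and 473 (8.64 ± 0.20). Laminin chain genes with UMIs in most members were Lamb1 (110 cells), Lamc1 (109), Lama2 (105) and Lama4 (96), whereas Lama5, the epithelial and endothelial chain, had none. Of the elastic fibre and glycoprotein genes 27 of 29 were called higher. Fbn1 (fibrillin-1) stood at 697 and 677 with a difference of 10.53 ± 0.65, and Eln (elastin) at 246 and 198 with 12.22 ± 0.84. Fn1, the gene of fibronectin, was scarce at 5.52 and 23.9, had UMIs in 15 members and was not called (1.96 ± 0.86). Tnc (tenascin-C) had UMIs in 7 members and was called lower than in the epithelial-like cells (-2.07 ± 0.30, but -1.87 and not called without Cd11cYFP replicate 1).

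Short stretches of 3 promoters are shown because these genes encode matrix proteins, and because their windows hold at least 1 of the 2 short elements searched. These were CCAAT and TATAAA, each on both strands, neither of which overlaps the other. Sequences are from RefSeq (GRCm38.p6), 5′ to 3′ on the gene's strand, with the element in capitals.
Col1a2, chr6:4505497-4505525, + strand: aaaagaatggaaCCAATttaagaagcccc
Col3a1, chr1:45311409-45311438, + strand: actaatgcatgtTATAAAcatatgcatagg
Postn, chr3:54361069-54361098, + strand: agcccagagctaTATAAActcagctctcca
The element shown began 109 bases before the annotated start of Col1a2, 117 before that of Col3a1 and 26 before that of Postn. Matches of CCAAT on the opposite strand are not shown. They lay at the annotated start of Col1a2 and 24 bases after another annotated start of Postn. Over all 32851 promoter windows of 300 bases, 37.4% held CCAAT and 13.6% held TATAAA. Among 71 windows of the 56 matrix genes matched, of 76 listed, 32.4% held CCAAT and 14.1% held TATAAA. A match is a description of the letters only.

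Enzymes that process and cross-link collagen were detected together with their substrates. All 23 tested were called higher against the remaining cells, with a median log2 difference of 5.46, and 22 of 23 against the epithelial-like cells. Serpinh1, encoding the collagen chaperone HSP47, stood at 1092 and 829 against 0.637 and 0.415 (10.44 ± 0.48). Pcolce, an enhancer of procollagen cleavage, stood at 669 and 467 (11.47 ± 0.41). Housekeeping members of the secretory route differed less, as with Ppib at 781 and 706 against 446 and 475 (0.58 ± 0.17, but not called without Cd11cYFP replicate 1, at 0.34, or 2, at 0.76). The lysyl oxidase genes were mostly scarce: Lox had UMIs in 10 members and Loxl1 in 19, against 67 for Loxl2. Of the matrix proteases and their inhibitors all 21 tested were called higher. Mmp2, a gelatinase, stood at 371 and 405 against 23.6 and 23.6 (3.90 ± 0.16), and Timp2, an inhibitor of metalloproteinases, at 802 and 843 against 241 and 164 (1.64 ± 0.42, but not called without Cd11cYFP replicate 1, at 1.55, or 2, at 1.35). Mmp3 (stromelysin-1) had UMIs in 49 and Timp1 in 11 of the members. Fap, known from activated fibroblasts, stood at 74.5 and 104 with UMIs in 70 members.

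**Figure D5:**
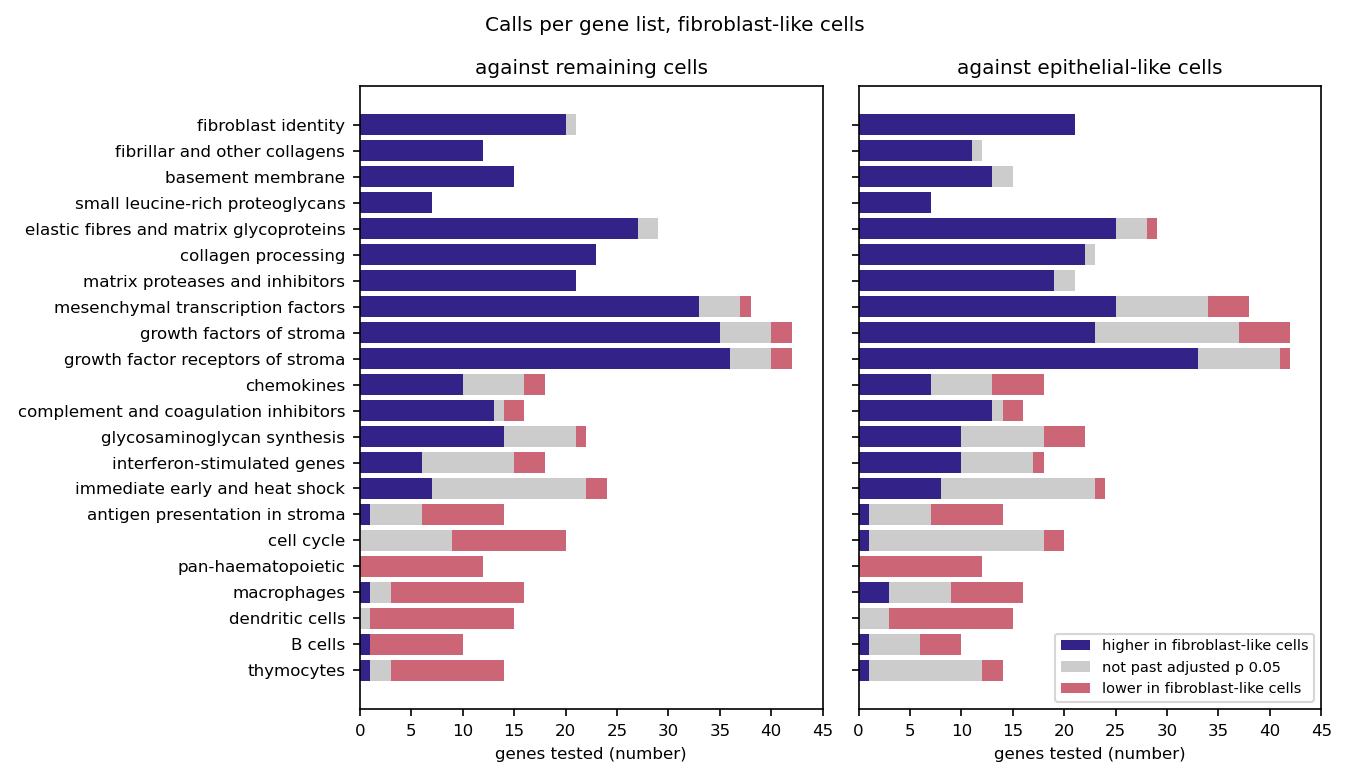
Number of tested genes per list (horizontal axis) called higher (dark), called lower (red) or not called (grey) in fibroblast-like cells at an adjusted p under 0.05, against remaining cells (left) and epithelial-like cells (right). Matrix lists are almost wholly called higher, and the haematopoietic list is wholly called lower in both panels (12 of 12).

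Genes that distinguish fibroblast states were unevenly present. Of the adventitial list 9 of 13 tested genes were called higher and 3 lower against the remaining cells. Against the epithelial-like cells 6 were called higher and 5 lower, with a median log2 difference of 0.78. Cd34, a sialomucin of many stromal and progenitor cells, stood at 886 and 1005 against 1.68 and 0.725 (9.23 ± 0.91) and had UMIs in 117 members. Cd248 (endosialin) had UMIs in 57 members. Pi16, by contrast, had UMIs in 10 members, and 92 of its 95 UMIs in replicate 2 came from 1 cell, so that its levels of 9.19 and 134 differed by that cell. Dpp4 had UMIs in 9 members of replicate 1 and 1 of replicate 2 and stood at 11.95 and 1.41, against 71.8 and 53.9 in remaining cells, where dendritic and T cells are known to express it. After thinning no member kept a Dpp4 UMI, whereas 13.6% and 1.92% had one before it, so the thinned shares, with exact 95% limits of 5.44% and 6.85%, bound cells with a UMI at 3000 UMIs and not cells with the RNA. Among the 10 Pi16-positive members 1 also had a Dpp4 UMI. Sema3d and Wnt2 had UMIs in 1 and 0 members.

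Reticular and parenchymal markers gave 11 genes called higher and 1 lower of 19 tested against the remaining cells. The median log2 difference there was 2.31 (3.03 with genes absent from a class set at their bound). Against the epithelial-like cells 6 were called higher, 5 lower and 8 were not called, with a median of 0.24. Col15a1, a basement membrane collagen, stood at 1686 and 1552 against 2.08 and 2.15 (9.49 ± 0.26) with UMIs in 116 members. Il33, encoding a nuclear alarmin stored in stromal cells, stood at 327 and 319 (11.78 ± 0.62) with UMIs in 105. Penk (proenkephalin) had UMIs in 21 members, 13 of replicate 1 and 8 of replicate 2, and was not called (4.09 ± 1.44). Inmt, known from parenchymal fibroblasts, had UMIs in 16 members. Il7, the thymocyte survival cytokine, stood at 4.60 and 11.3 with UMIs in 13 members, lower than in epithelial-like cells (-2.22 ± 0.54, but -1.62 and not called without Cd11cYFP replicate 1), and Tnfsf11 and Madcam1 had no UMI. Of the mural and myofibroblast list 10 of 12 tested were called higher. They included Des (desmin) at 542 and 489.7 (11.98 ± 0.41) and Vtn (vitronectin) with UMIs in 65 members, while the contractile genes Acta2, Myh11 and Cnn1 had UMIs in 4, 6 and 0 cells.

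Mesenchymal transcription factors accompanied the matrix genes. Of 38 tested, 33 were called higher and 1 lower against the remaining cells, and 25 higher and 4 lower against the epithelial-like cells. Prrx1, a homeobox gene of limb and craniofacial mesenchyme, stood at 344 and 402 against 0.170 and 0.0443 (11.71 ± 0.52) and had UMIs in 117 of the 119 members. Its level was at least 233-fold that of the epithelial-like cells, which had no Prrx1 UMI in the Cd11cYFP libraries (bound at 3 UMIs over the class). Ebf1, known from B cells and also from stromal cells, stood at 375 and 405 against 50.04 and 38.96 (3.12 ± 0.27). Twist1 stood at 209.6 and 170.3 (7.28 ± 0.40), Nr2f2 at 172 and 218 (11.00 ± 0.58) and Meox1 at 201 and 174 (10.28 ± 0.36). Hand2, best known from heart and limb buds, stood at 37.7 and 49.2 with UMIs in 47 members. Tbx18 and Tcf21 had UMIs in 17 and 32 members. Foxp1 was the gene called lower, at 41.4 and 73.2 against 119 and 93.4 (-1.10 ± 0.25, but -0.66 and not called without Cd11cYFP replicate 1).

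Secreted growth factors and their modulators included several with thymic roles. Of 42 tested, 35 were called higher and 2 lower against the remaining cells. Ptn (pleiotrophin), a heparin-binding growth factor, stood at 3106 and 2818 in members, 0.741 and 0.122 in remaining cells and 5.08 and 3.05 in epithelial-like cells (13.15 ± 0.73 and 8.68 ± 0.69). In the cell from MAFIA replicate 2 it had 1 UMI. Il34 and Csf1 both encode ligands of the CSF1 receptor, the receptor on which macrophages depend. Il34 stood at 396 and 272 against 0.141 and 0.0332 (12.04 ± 0.48) and was seen in 60.6% and 55.8% of members after thinning (93.9% and 96.2% unthinned). Csf1 stood at 96.5 and 115 against 5.71 and 7.26 (3.89 ± 0.25) and was seen in 27.3% and 23.1% (63.6% and 63.5% unthinned), against 2.61% and 2.78% of B cell-like cells. Bmp4, expressed by thymic mesenchyme, stood at 177 and 163 (11.80 ± 0.56), and Fgf10, a ligand for the epithelial receptor FGFR2, at 45.97 and 40.8 (11.92 ± 0.93) with UMIs in 45 members. Fgf7 had UMIs in 14 members. Kitl (stem cell factor) stood at 57.9 and 64.7 (5.67 ± 0.32) and Flt3l, a growth factor of dendritic cells, at 165 and 98.5 (4.19 ± 0.26). Tslp, a cytokine first described from thymic stroma, stood at 72.6 and 53.5 (5.52 ± 0.56). Gas6, a ligand of the TAM receptor kinases, differed between the libraries (117 and 243), with 5.31 and 3.38 in remaining cells. Tgfb1 and Pdgfb, typical of myeloid cells, were called lower, at 45.97 and 42.2 against 151 and 124 and at 0.919 and 0 against 25.2 and 20.1.

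Receptors for such factors were called higher for 36 of 42 genes against the remaining cells and for 33 of 42 against the epithelial-like cells. Pdgfrb, shared by fibroblasts and pericytes, stood at 144 and 155 (8.09 ± 0.97). Ddr2, a collagen receptor, stood at 205 and 250.5 (11.83 ± 0.41) with UMIs in 112 members. Il11ra1, the interleukin 11 receptor, stood at 408 and 352 against 15.6 and 16.6 (4.44 ± 0.26), but its level in epithelial-like cells, 308 and 143, left the difference uncalled there (0.75 ± 0.25). Osmr, the oncostatin M receptor, stood at 118 and 127 (10.66 ± 0.50). Ltbr, the lymphotoxin receptor through which stroma is organised, stood at 75.4 and 46.4 against 21.3 and 18.1 (1.39 ± 0.29, but 1.13 and not called without Cd11cYFP replicate 1). Cd44, abundant on leukocytes, was called lower (-1.24 ± 0.26, but -0.91 and not called without Cd11cYFP replicate 1), as was Met (-2.52 ± 0.56, but -3.16 and not called without Cd11cYFP replicate 1).

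Chemokines split into some that stood out and some shared with the other cells. Of 18 tested, 10 were called higher and 2 lower against the remaining cells, beside 22.7% and 20.1% of all genes tested. Against the epithelial-like cells 7 were called higher and 5 lower. Ccl11 (eotaxin) stood at 1374 and 1105 against 0.622 and 0.293 (11.27 ± 0.64), and Cxcl14 at 678 and 577 against 0.119 and 0.105 (12.22 ± 0.36). Cxcl12, which retains immature thymocytes in the cortex through CXCR4, stood at 190.3 and 139 against 0.822 and 0.260 (8.04 ± 0.70) and was seen in 36.4% and 36.5% of members after thinning (65.2% and 61.5% unthinned). Ccl19, a ligand of CCR7, stood at 174 and 119.6 against 0.356 and 0.570 in remaining cells (8.24 ± 0.32) and 183 and 227 in epithelial-like cells, from which it was not called different (-0.53 ± 0.28). Its share of members with a UMI was 37.9% and 28.8% (72.7% and 59.6% unthinned). The other CCR7 ligand, Ccl21a, had UMIs in 3 members and was called lower than in epithelial-like cells (-7.02 ± 0.47), as was Ccl25 (-5.74 ± 0.62), the ligand of CCR9. Cxcl13, the B cell attractant, had UMIs in 13 members and levels of 21.1 and 153. Ccl2 and Ccl7, which attract monocytes, stood at 271 and 85.8 and at 257 and 81.6, higher in replicate 1. Ccl5, made by lymphocytes and dendritic cells, was called lower at 350.3 and 208 against 1824 and 1738 (-2.81 ± 0.22). Without the 9 cells rich in haematopoietic RNA its level was 282 and 246.

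Complement genes other than C1q were prominent. Of 16 tested genes of complement and coagulation control, 13 were called higher and 2 lower in both comparisons. C3, the central component, had 1, 74.5 and 187 UMIs per cell in replicate 1 and 3, 72 and 225 in replicate 2 (lowest, median and highest), with 37 in the cell from MAFIA replicate 2. Every member thus had a C3 UMI, and the libraries overlapped. After thinning C3 was seen in 98.5% and 98.1% of members, against 1.62% and 0.676% of B cell-like cells (6.30% and 5.48% unthinned). As a level it stood at 5037 and 6003 against 109.5 and 69.7 (5.51 ± 0.51). Serping1, the C1 inhibitor, stood at 2025 and 1137 (12.38 ± 0.68), and C1s1, a protease of the C1 complex, at 909 and 801 (12.37 ± 0.47). Cfb (factor B) stood at 468 and 169 and C4b at 138 and 21.1, both higher in replicate 1. Clu (clusterin) was called lower (-3.39 ± 0.65, but -2.50 and not called without Cd11cYFP replicate 1).

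Among genes of lipid, retinoid and prostaglandin handling 12 of 19 were called higher against the remaining cells. Apod (apolipoprotein D) had 0, 119 and 265 UMIs per cell in replicate 1 and 1, 37 and 172 in replicate 2, and 3 in the cell from MAFIA replicate 2. The replicate 1 median lay above that of replicate 2 while the ranges overlapped. As a level Apod stood at 7400.3 and 3371 against 20.6 and 14.7 (7.80 ± 0.95). Apoe (apolipoprotein E), abundant in macrophages, stood at 2407 and 3851 in members and 3008 and 2592 in remaining cells, lower in replicate 1 and higher in replicate 2, and was not called (-0.04 ± 0.19). It was called higher than in epithelial-like cells (4.09 ± 0.20), and without the 9 cells rich in haematopoietic RNA its level was 2635 and 4561. Enpp2, which encodes autotaxin, stood at 2257 and 2279.5 (10.77 ± 1.10), and Rarres2 (chemerin) at 1009 and 801 (12.47 ± 0.73). Lpl (lipoprotein lipase) stood at 774 and 759.8 against 61.1 and 75.6 (3.43 ± 0.41). Aldh1a1, a retinal dehydrogenase, had UMIs in 51 members and Aldh1a2 in 3.

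Of the glycosaminoglycan synthesis genes 14 of 22 were called higher and 1 lower. Chpf, a chondroitin polymerising factor, stood at 127 and 135 (3.88 ± 0.22), and Has2, a hyaluronan synthase, at 47.8 and 40.8 (4.04 ± 0.34). The TGF-beta response list gave 6 higher and 3 lower of 13 against the remaining cells, beside 22.7% and 20.1% of all genes tested. The higher ones included Postn, Col1a1, Tnc, Ccn2 and Tagln, and the lower ones were Skil, Smad7 and Tgfbi. Smad7, an inhibitor of the pathway, stood at 37.7 and 75.98 against 109.8 and 122 (-1.19 ± 0.23, but -0.87 and not called without Cd11cYFP replicate 1, nor without the replicate block, at -0.91).

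Genes of antigen presentation divided by class. MHC class I genes were at or above the level of the remaining cells, as with H2-D1 at 5643 and 3044 against 2557 and 2292 (0.64 ± 0.20, but not called without Cd11cYFP replicate 1, at 0.17, or 2, at 0.99) and B2m, its light chain, at 7361 and 3895 against 4171 and 3515 (not called, 0.38 ± 0.19). Both were higher in replicate 1 than in replicate 2 of the members. MHC class II genes were called lower, as with H2-Aa at 1147 and 1943 against 7615 and 8709 (-2.47 ± 0.22). Cd74 stood at 2237 and 3452 against 14965 and 18009 (-2.62 ± 0.18), but per cell it had medians of 3 UMIs in both libraries and highest values of 776 and 523. The 9 cells rich in haematopoietic RNA held 82.8% of all Cd74 UMIs of members. Without them Cd74 stood at 573 and 474 and H2-Aa at 369 and 338. Ciita, the class II transactivator, had UMIs in 15 members.

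Interferon-stimulated genes were mixed, with 6 called higher and 3 lower of 18. Over all genes tested against the remaining cells, 22.7% were called higher and 20.1% lower, so the counts in this paragraph do not single out these lists. Ifitm3, an antiviral membrane protein, stood at 4451 and 3135 against 666 and 287 (2.82 ± 0.27), with the caution that the Ifitm genes are close copies whose reads the counting may split. Iigp1, an immunity-related GTPase, stood at 723 and 438 against 29.01 and 10.6 (4.41 ± 0.68), whereas Isg15 was not called (-0.59 ± 0.35). Immediate early genes, which respond to tissue dissociation among other stimuli, gave 7 higher and 2 lower of 24 together with heat shock genes. Egr1 stood at 1337 and 1424 against 194 and 259 (2.29 ± 0.36, but 1.85 and not called without Cd11cYFP replicate 1, nor without the replicate block, at 2.98) and Jun at 1521 and 1562 against 397 and 609.7 (1.39 ± 0.25, but 0.94 and not called without Cd11cYFP replicate 1, nor without the block, at 1.95), while Fos, at 2098 and 2402 against 1070.2 and 1393, was not called (0.68 ± 0.26). In the cell from MAFIA replicate 2 Fos had no UMI. Hspa1b, an inducible heat shock gene with the near-identical copy Hspa1a, differed between the libraries in both classes, at 557 and 1161 in members and 159 and 902 in remaining cells.

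No cell cycle gene was called higher against the remaining cells, and 11 of 20 were called lower. The latter count was 7 without the 9 cells rich in haematopoietic RNA, and 17 without the 36 members with a Ptprc UMI. Over all genes tested against the remaining cells 22.7% were called higher and 20.1% lower. Mki67, a marker of cycling cells, stood at 47.8 and 29.5 against 100.9 and 130.3 (-1.56 ± 0.38) and had UMIs in 10 members. Top2a, a topoisomerase of dividing cells, stood at 88.3 and 63.3 against 142 and 161 (-1.11 ± 0.29). Without the 9 cells Mki67 stood at 52.1 and 0 and Top2a at 95.95 and 1.72. In replicate 2 almost all of this RNA thus lay in those cells, with all Mki67 UMIs in 1 of the 52 members. Neither gene was called in the model without the 9 cells or without Cd11cYFP replicate 2 (-0.99 and -0.73).

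Genes of blood cells were lower as a group. All 12 pan-haematopoietic genes were called lower in both comparisons. The median log2 difference was -2.68 against the remaining cells, or −4.00 without the 9 cells and −5.54 without members with a Ptprc UMI. The epithelial-like cells were not free of this RNA. UMIs of the 12 genes took medians of 0.261% and 0.375% of such a cell's UMIs in Cd11cYFP replicates 1 and 2. Ptprc stood at 56.1 and 92.9 against 573 and 420.4 (-2.81 ± 0.28) and Cd52 at 497 and 679.6 against 3011 and 3209 (-2.44 ± 0.21). Without the 9 cells they stood at 31.6 and 43.1 and at 125 and 160.2. Of the macrophage list 13 of 16 were called lower, and the gene called higher was Axl, a TAM receptor kinase that fibroblasts also express, at 323 and 304 against 129.8 and 100.9 (1.22 ± 0.21, but 1.16 and not called without Cd11cYFP replicate 1). Lyz2 (lysozyme) stood at 44.1 and 67.5 against 1355 and 1477 (-4.77 ± 0.20). Of the dendritic cell list 14 of 15 were called lower, with a median of -2.20, or −4.35 without the 9 cells. Xcr1, a receptor of type 1 dendritic cells, stood at 20.2 and 113, or at 1.02 and 3.44 without them. The B cell and thymocyte lists had 9 of 10 and 11 of 14 genes called lower, and in each the gene called higher is one that stroma also expresses, Ebf1 and Thy1. Igkc, the immunoglobulin kappa constant region secreted by plasma cells, stood at 171 and 64.7 against 3579 and 3044 and had UMIs in 74 members.

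Genes with the largest differences from the remaining cells, besides those above, included C1qtnf2, Cd248, Kcne4, Pi15, Srpx and Tspan11. Srpx stood at 133 and 84.4 against 0.0148 and 0 (13.47 ± 0.54), and Pi15, a peptidase inhibitor, at 117 and 152 against 0.0222 and 0.00553 (12.99 ± 0.48). Kcne4, a potassium channel subunit, stood at 29.4 and 29.5 and had no UMI in the remaining cells of the Cd11cYFP libraries, so its level was at least 3101-fold higher (3 UMIs over the class). In the other direction Cd209d, a lectin of dendritic cells, had no UMI in members and was at least 27.2-fold lower, and Pecam1, the endothelial adhesion molecule also found on leukocytes, at least 12.5-fold lower.

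Against the epithelial-like cells the largest differences belonged to genes with no UMI in one of the classes, so that only bounds can be given. Dpt was at least 589.8-fold higher in the fibroblast-like cells, with levels of 949 and 902. Abca8a, a membrane transporter of the ABC family, was at least 325-fold higher and Ms4a4d at least 241-fold higher. Scara5, a ferritin receptor, was at least 152-fold higher, at 222 and 266. Lower in the fibroblast-like cells were Wfdc18, at least 282-fold, and Csn2, the milk protein beta-casein, at least 253-fold, both of them among the tissue-restricted genes present in the epithelial-like class. Of the thymic epithelial list 15 of 16 were called lower there. Aire stood at 1.84 and 1.41 in members against 305 and 264 in epithelial-like cells (-7.24 ± 0.55), and Foxn1, the master regulator of thymic epithelium, had UMIs in 1 member.

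Most genes had similar levels in the fibroblast-like cells of the 2 Cd11cYFP libraries. Of 1570 genes with a mean of at least 100 CPM, 1548 (98.6%) lay within 2-fold of each other between the libraries. For the remaining cells of the same libraries the share was 99.0%. With the limit lowered to 10 CPM the share was 92.7% of 8829 genes in members and 99.2% of 7846 in remaining cells, with median absolute log2 ratios of 0.29 and 0.12. The widest gaps towards replicate 1 were in the monocyte-attracting chemokines Ccl2 (271 and 85.8) and Ccl7 (257 and 81.6), followed by Ccr7, a chemokine receptor of mature dendritic cells and T cells (186 and 61.9), Cfb (468 and 169), Cxcl9 (597 and 227), Igkc (171 and 64.7), Lgals3 (279 and 114) and Apod (7400.3 and 3371). Towards replicate 2 they included Igf1, insulin-like growth factor 1 (79.1 and 189), and Mpeg1, a perforin-like gene of macrophages and dendritic cells (78.1 and 234). Mpeg1 stood at 35.7 and 24.1 without the 9 cells rich in haematopoietic RNA, so this gap was not seen without them. The gap of Ccr7 narrowed without the 9 cells, to 93.9 and 67.2, with UMIs in 5 and 6 of the members left. Cxcl9 (594 and 117) and Igkc (184 and 65.4) kept their gaps. These are values of 2 libraries with no test.

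The fibroblast-like cells varied among themselves most in a small set of genes, by a measure that was not adjusted for mean level. Variation was measured in the 63 and 46 Cd11cYFP members outside the 9 cells, after thinning each to 6000 UMIs, as the variance over the mean of UMIs per cell (Fano factor), for 782 genes with a mean of at least 1 UMI in both libraries. The median factor was 1.38 and 1.40 in replicates 1 and 2. Of the 10 genes with the largest factors in each library 7 were shared, and of the 20 largest 13 were shared. Abundant RNAs such as Malat1 (means of 193 and 247 UMIs) and Dcn (114 and 106) were among those 20 in both libraries. The overlap is thus not read as a shared pattern of variation. Mgp, encoding matrix Gla protein, an inhibitor of calcification, had factors of 42.0 and 39.0, with UMIs in 55 of 63 and 34 of 46 cells and highest counts of 134 and 111. It was therefore abundant in some members and unseen in others in both libraries. Ccl5 had factors of 34.2 and 25.3 from only 15 and 12 cells, and Cxcl10, an interferon-induced chemokine, 15.2 and 23.6 from 27 and 9 cells. Apoe had factors of 25.3 and 26.5, Serpine2, a protease inhibitor, 13.9 and 14.5, and Apod 11.0 and 15.2. Among the genes of the rule Dcn had factors of 15.5 and 14.4. Rn18s and Malat1, abundant structural and nuclear RNAs, had factors of 74.7 and 84.8 in replicate 1 and 40.02 and 34.1 in replicate 2.

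Postn, which encodes the matricellular protein periostin, was among the variable genes, with factors of 10.3 and 10.7. It had 0, 7 and 155 UMIs per cell in replicate 1 and 0, 10.5 and 96 in replicate 2, over all members. UMIs of Postn were present in 51 of 66 and 37 of 52 cells, so 15 members of each library showed none. Postn and Ccl19 were seen together in 62 of the 119 members, Postn without Ccl19 in 27, Ccl19 without Postn in 18, and neither in 12. Of the 10 members with a Pi16 UMI 8 also had Postn. Because low counts leave many cells at 0, absence of a UMI does not show absence of the RNA.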

How the data were processed

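The authors deposited filtered gene-by-cell matrices of raw UMI counts for 4 libraries of reporter-sorted thymic cells, made with Cell Ranger and STAR 2.7.9a after bcl2fastq 2.20. The genome build is given as GRCm39 (mm39) in the submitters' processing notes and as mm10 in the study's methods, and no coordinate was taken from the matrices. Of the 29271 deposited barcodes, 29042 passed the limits of 1000 to 7000 genes and at most 10% mitochondrial UMIs. No doublet caller was run, and the sources used here do not mention doublet removal.

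The members and gene lists were chosen with earlier results of these data known. Cells meeting the Dcn, collagen and C1q rule were compared with epithelial-like cells (at least 1 Epcam UMI and 3 UMIs of Krt5, Krt8 and Krt18) and with all remaining cells. Raw counts were summed per library and class, leaving out sums of fewer than 10 cells, and fitted in edgeR 4.0.16 (R 4.3.3; TMM, filterByExpr, glmQLFit and glmQLFTest) with the library as a block, over 8 sums with 3 residual degrees of freedom. The classes of a library come from the same cell suspension, which is the source of the pairing. Benjamini-Hochberg adjusted p under 0.05 over all tested genes was called. The 6 genes of the rule were never counted, nor were the epithelial-like rule genes in that comparison. The model was tested on simulated data. DESeq2 1.42.0 was an alternative. Shares of cells carry exact (Clopper-Pearson) 95% intervals, which cover counting error only, and were computed after thinning each cell to 3000 UMIs with B cell-like cells (at least 3 UMIs of Cd79a and Cd79b) as background. Nothing in the labels says that the 2 Cd11cYFP libraries are more than separate samples of 1 group, beyond the 2 mice in the methods.

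Genes were named by rule as the rule genes, the 10 largest called differences per comparison and direction (same sign in every library, at least 50 UMIs in the higher class), the 6 most abundant members of each list and the cell type markers. Other genes were named for their known role after their values had been seen. Some genes that the rule names are not reported here. Of 55418 gene entries, 108 symbols occur on several entries. Counts of near-identical genes (Hspa1a and Hspa1b, the Ifitm, Ly6 and H2 families, Ccl21a) are uncertain, since reads may be split between copies.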

Additional observations from a re-analysis of the deposited data

How the results depend on the processing

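The shares of fibroblast-like cells moved within their counting intervals under every other gate and filter tried, with 65 to 66 and 51 to 52 members in Cd11cYFP replicates 1 and 2 and 1 to 2 in MAFIA replicate 2. Thinning every cell to 3000 UMIs, which left 4264 and 4260 genes tested, gave 1047 genes called higher and 908 lower against the remaining cells, and 776 and 633 against the epithelial-like cells. Without a filter on low counts 3545 genes were called lower against the remaining cells. Leaving out 1 library in turn gave 1282 to 2658 higher and 878 to 2327 lower against the remaining cells, and 651 to 1793 and 488 to 1798 against the epithelial-like cells. The lowest counts came without Cd11cYFP replicate 1, which leaves 1 member sum, assumed to vary as the other sums do. Without the replicate block, the pairing by library, the counts were 2647 and 2258 against the remaining cells and 1979 and 2097 against the epithelial-like cells. The 9 members rich in haematopoietic RNA were left out as a step chosen after seeing the data, giving 2709 and 2500, and 2002 and 2268.

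No called difference changed direction among the genes whose differences are printed. Differences that were not called did so for Apoe, which was at 0.24 without Cd11cYFP replicate 1 and positive under 5 other alternatives, and for B2m, at -0.04 without that library. Of the differences of 78 named genes from the remaining cells under all alternatives, 887 values kept their call, 28 lost it and 13 gained it. Calls of Mki67 and Top2a were lost without the 9 members, under the stricter gate and without Cd11cYFP replicate 2. Those of H2-D1, Ppib and Timp2 were lost without either Cd11cYFP library, and those of H2-D1 and Ppib also with no filter on low counts, that of H2-D1 also without members with a Ptprc UMI. Without replicate 1 alone the calls of Ly6a, Foxp1, Ltbr, Cd44, Met, Clu, Smad7, Egr1, Jun and Axl were lost, as were those of Tnc and Il7 against the epithelial-like cells. Egr1, Jun and Smad7 were also not called without the replicate block, whereas Penk was. The cause was not tested. The planned comparison of MAFIA with Cd11cYFP members was not run, because MAFIA replicate 2 held 1 member. With 2 member sums the precision rests on the model's pooled spread.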
